A study of Mus musculus with 8 samples.

Results

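Eph receptors are receptor tyrosine kinases that bind ephrins on the surface of a neighbouring cell, so that the pair signals where cells touch. The A-class ephrins are held in the membrane by a lipid anchor and the B-class ephrins span it, and contact sends signals both into the cell that carries the receptor and into the cell that carries the ephrin. In blood vessels ephrin-B2 is known as a marker of arterial and EphB4 of venous endothelium, and EphA2 with its ligand ephrin-A1 is known for roles in vessel growth and at cell contacts. The genes described here are the receptors Epha2, Epha4, Ephb2 and Ephb4 and the ligands Efna1, Efnb1 and Efnb2, taken as every probe set that the array's annotation gives to 1 of these symbols alone. This rule found 6 of the 12488 probe sets on the array, for 5 of the 7 genes. Ephb2 and Ephb4 had no such probe set in the annotation used here and were not analysed here.

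RNA of cells labelled as mouse aortic endothelial cells was measured on 8 single-colour Affymetrix arrays, 1 sample per array. The confluent group held 4 samples of mature monolayers that had filled the dish, and the subconfluent group held 4 samples of cultures at under 50% confluency, each from 6000000 cells. No treatment or genotype was named for either group, and nothing beyond an experiment number from 1 to 4 says whether the samples came from separate cultures, so p-values measure only the spread between these samples, which may be technical. The comparison asks how transcript levels differ between cells in full contact with their neighbours and cells with free space. Values are signals, linear brightness values per probe set that the authors scaled to a common target of 500.

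The arrays were alike in overall level, with medians of 169 to 187, but their scale factors ran from 3.05 to 13.3. The pixel noise given in the labels (Raw Q), multiplied by the scale factor, ran from 7.19 to 21.6 signal units, and the number of arrays limits the precision. Degradation marks did not separate the groups, as the ratio of 3' to 5' signal of Gapdh lay between 0.781 and 0.851 in confluent and between 0.801 and 0.833 in subconfluent samples. The labelled cell type was weakly borne out by its markers. Endothelial marker genes averaging at least 200 were 3 of 22 (Eng, Cd34 and Procr), where 56.6% of genes on the array did so. Subconfluent means were 6.88 for Tek, 12.3 for Cdh5, 18.6 for Vwf, 19.0 for Tie1, 108 for Kdr and 124 for Pecam1. In the same order the confluent means were 15.6, 13.6, 27.9, 15.65, 75.8 and 97.5. None was listed at 0. Of the fibroblast and pericyte markers 13 of 22 reached 200, with Col1a1 at 20960 in confluent and 16190 in subconfluent samples. Their summed signal was 76658 to 106241 on confluent and 44490 to 64725 on subconfluent arrays. The endothelial sum was 2858 to 4909 and 3653 to 4849. The brightest genes weigh most in such sums. In the first these were Col1a1, Col1a2 and Dcn, with confluent means of 20960, 19160 and 14710. In the second they were Cd34 and Eng, with confluent means of 1340 and 883. In bulk samples fewer cells of a type and less RNA per cell cannot be told apart.

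Among the described genes, the receptor gene Epha2 rose in subconfluent cells, and the ligand gene Efnb2, the other one bright enough to be tested, was high in both groups with a difference inside the spread. The remaining 3 genes, Epha4, Efna1 and Efnb1, lay under the minimum mean signal of 200 that a probe set needed to be tested. At a Benjamini-Hochberg adjusted p under 0.05 in limma, a linear model fitted across 6007 probe sets, 1 of 2 tested genes was called higher and 0 were called lower (1 of the 2 had an unadjusted p under 0.05). The background shares were 2.75% of all tested probe sets called higher and 4.06% called lower, 6.81% in all. An unadjusted limma p under 0.05 was found for 1558 of the 6007.

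Epha2 (probe set 103980_at) encodes a receptor tyrosine kinase of the A class. In confluent samples 1 to 4 its signals were 185, 458, 161 and 325, and in subconfluent samples 1 to 4 they were 491, 710, 742 and 1076. The groups did not overlap, although the highest confluent value (replicate 2) came close to the lowest subconfluent one (replicate 1). Groups were apart in this direction in 8.34% of tested probe sets. The confluent mean was 282 ± 137 and the subconfluent mean 755 ± 242 (SD, n = 4). On the scale of log2(signal + 50), which understates changes of dim genes, the difference was 1.32 ± 0.30 (SE, limma adjusted p = 0.0308). That is a rise of 2.50-fold, with a 95% interval of 1.58-fold to 3.94-fold. Its difference ranked 21 from the largest among the 6007 probe sets, and 17 among the 165 called higher.

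Samples of the same experiment number deviated together across the array, so each number was read as a pair of 1 confluent and 1 subconfluent sample. Epha2 was higher in 4 of 4 pairs, by 1.20, 0.58, 1.91 and 1.59 on the log2 scale in pairs 1 to 4. A rise in all pairs was seen in 20.7% of tested probe sets. Pair 2 gave the smallest difference, because confluent replicate 2 had the highest signal of its group, and pair 3 gave the largest. With the pairs as a block the limma adjusted p was 0.00491, where 9.94% of tested probe sets were called higher. Epha2 was called in each of the 4 such fits that left out 1 pair (0.00257 to 0.0299). Without the block the call did not hold in every fit. It ended when confluent replicate 1, 3 or 4 or subconfluent replicate 2, 3 or 4 was left out (limma adjusted p of 0.0575 to 0.0769), when no signal minimum was used (0.0549, where 0.58% of 12422 probe sets were called higher and 1.67% in all), and within chip lot C, where 1 confluent sample stood against 2 (0.149). The difference within lot C was 2.16, larger than that over all samples, and within lot A, 1 sample against 1, it was 1.20. Over all the fits tried it stayed between 1.08 and 2.16. Lot B held only confluent replicates 2 and 4 and lot D only subconfluent replicate 2, so lot and group were partly confounded.

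**Figure D1:**
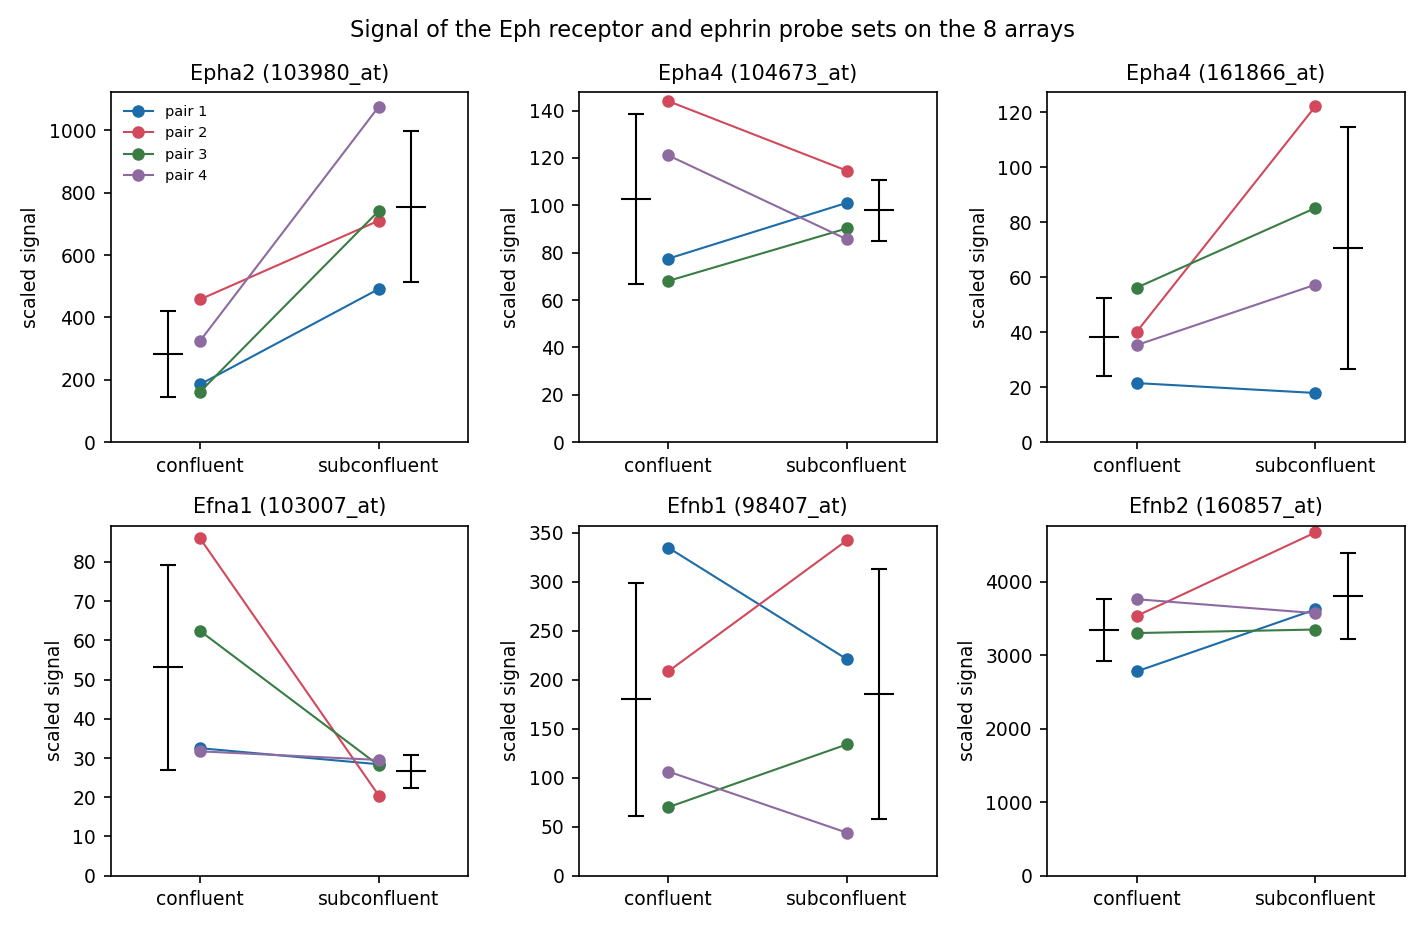
Scaled signal (linear axis from 0, a separate range in each panel) of the 6 probe sets on the confluent and subconfluent arrays, with points joined by pair and the mean ± SD of 4 arrays beside them. Epha2 lies at 161 to 458 in confluent and 491 to 1076 in subconfluent samples, Efnb2 overlaps between the groups at 2781 to 4674, and the 4 dim probe sets lie between 17.9 and 343.

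**Figure D2:**
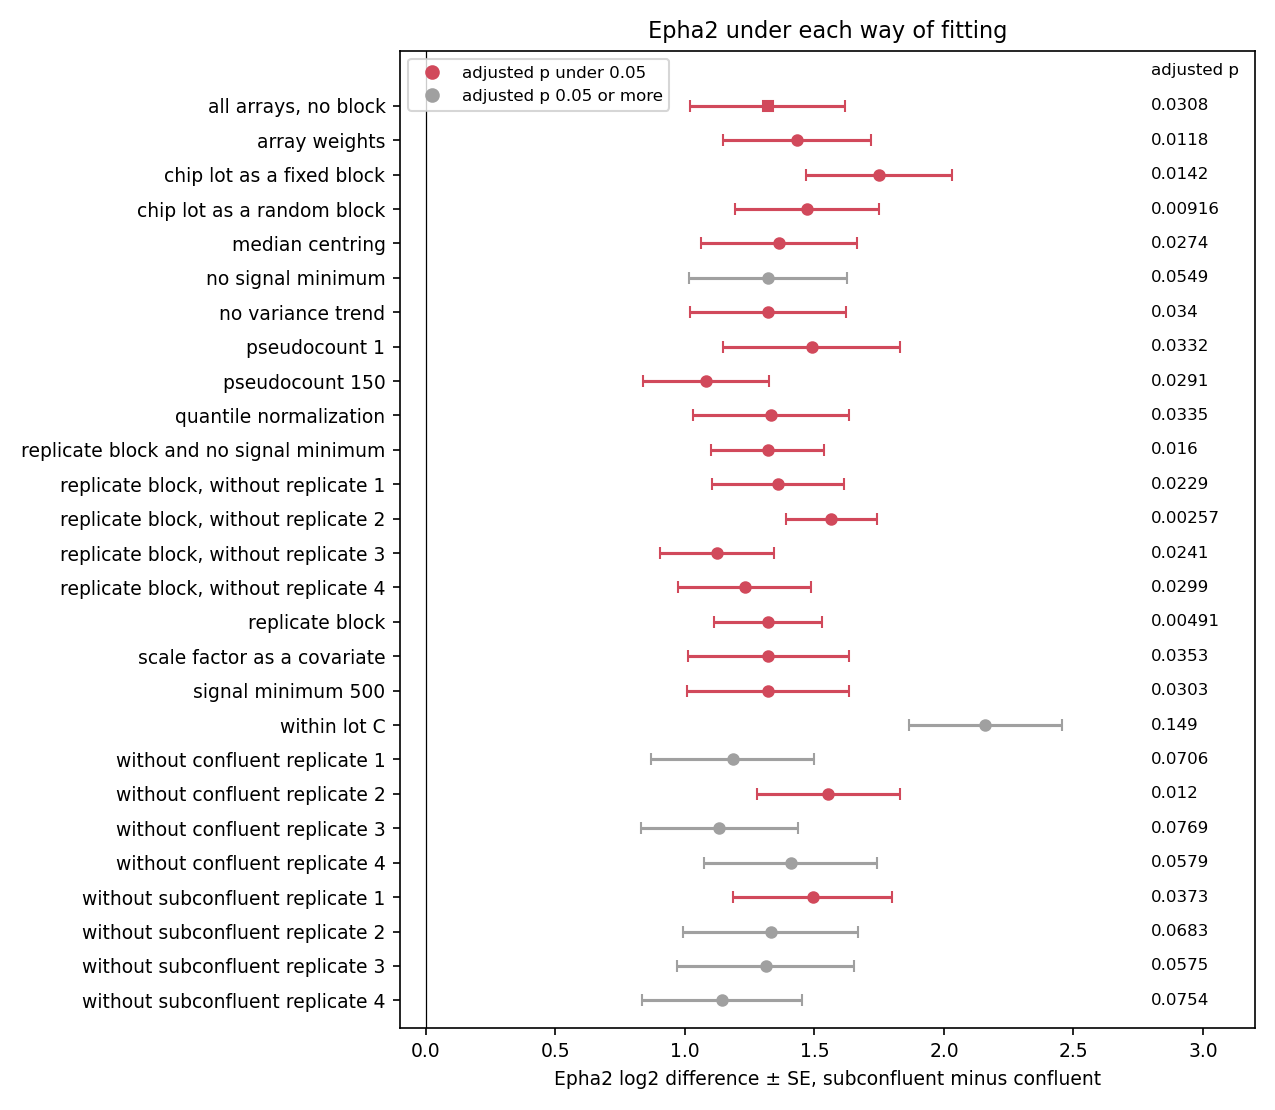
Epha2 difference in log2(signal + 50), subconfluent minus confluent, with its SE, for all arrays without a block (square) and for each other way of fitting (circles), with the limma adjusted p at the right. Every point lies above 1, and those in grey, with an adjusted p of 0.05 or more, are 6 of the 8 fits without 1 array, the fit without a signal minimum and the fit within lot C.

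The RefSeq promoter windows of the tested genes are shown because the receptor gene rose and the ligand gene was not called. Each window runs from 250 bases before to 50 bases after the annotated start of the gene in build GRCm38.p6, read 5′ to 3′ on the gene's strand. Epha2 lies on the plus strand at chr4:141300971-141301270 and Efnb2 on the minus strand at chr8:8661193-8661492. Capitals mark matches on either strand to the letters CATTCC (bound by TEAD factors, the DNA-binding partners of the density-responsive coactivator YAP), TGACGTCA (the cyclic AMP response element, CRE), TGANTCA (AP-1), GGGCGG (SP1) and CCAAT.
Epha2: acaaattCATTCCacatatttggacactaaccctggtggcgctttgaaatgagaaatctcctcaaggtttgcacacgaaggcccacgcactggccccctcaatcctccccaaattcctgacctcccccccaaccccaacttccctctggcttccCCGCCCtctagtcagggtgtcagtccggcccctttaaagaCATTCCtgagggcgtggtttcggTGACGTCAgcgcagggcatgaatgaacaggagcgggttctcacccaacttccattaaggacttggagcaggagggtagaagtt
Efnb2: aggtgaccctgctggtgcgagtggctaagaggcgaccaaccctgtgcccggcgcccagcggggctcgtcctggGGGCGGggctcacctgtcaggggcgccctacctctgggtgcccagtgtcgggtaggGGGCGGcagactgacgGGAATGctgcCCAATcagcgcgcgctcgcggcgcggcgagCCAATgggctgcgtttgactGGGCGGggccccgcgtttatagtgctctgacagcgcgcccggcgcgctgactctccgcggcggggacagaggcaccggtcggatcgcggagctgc

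In the Epha2 window the TEAD letters occurred 2 times, beginning 243 and 56 bases before the start, the CRE once, beginning 33 bases before it, and the SP1 letters once. The Efnb2 window held the TEAD letters once, beginning 105 bases before the start on the other strand, the SP1 letters 3 times and CCAAT 2 times. No matches overlapped one another, and AP-1 letters had 0 matches in either window. Of 32544 windows of the same length 14.6% held the TEAD letters at least once and 1.36% at least 2 times, 1.80% held the CRE, 7.79% AP-1, 35.9% SP1 and 37.4% CCAAT. The G and C content was 54.7% for Epha2 and 72.3% for Efnb2. The motifs were chosen after the Epha2 window was read, so the shares cannot show whether its matches are unusual. These matches describe the letters in the windows only, as no measurement here bears on what binds there.

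Epha4, a receptor that binds ephrins of both classes, had 2 dim probe sets, which were not tested against each other. For the brighter one (104673_at) the signals were 77.5, 144, 68.1 and 121 in confluent samples 1 to 4 and 101, 115, 90.3 and 85.6 in subconfluent samples 1 to 4. The subconfluent values all lay within the confluent range. Its log2 difference was -0.02 (exact two-sided permutation p = 0.943, n = 4 and 4), positive in 2 of 4 pairs, and in a limma fit with no signal minimum the 95% interval was 0.704-fold to 1.38-fold (adjusted p = 0.979). The second probe set (161866_at) gave 21.5, 40.1, 56.2 and 35.3 in confluent and 17.9, 122, 85.2 and 57.3 in subconfluent samples. Here 3 of 4 pairs were higher and pair 1 lower, with a log2 difference of 0.38 (exact p = 0.286, limma adjusted p = 0.547 with no signal minimum). The pair 1 signals of 21.5 and 17.9 stood beside pixel noise of 11.5 and 8.69 on those arrays.

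Among the ligand genes, Efna1 (103007_at) encodes ephrin-A1, a ligand of EphA2, and its signal was near the bottom of the scale. In confluent samples 1 to 4 it was 32.5, 86.0, 62.4 and 31.7, and in subconfluent samples 1 to 4 it was 28.4, 20.4, 28.1 and 29.5. The groups did not overlap, but confluent replicate 4 exceeded subconfluent replicate 4 by little, and only confluent replicates 2 and 3 stood well above the rest. Over all 12422 probe sets without the controls, groups were apart in this direction in 5.87% and in the other in 4.72%. The mean was 53.1 ± 26.1 in confluent and 26.6 ± 4.18 in subconfluent samples (SD, n = 4). The log2 difference of -0.40 was negative in 4 of 4 pairs, from -0.95 in pair 2 to -0.04 in pair 4, as in 17.1% of these probe sets. The exact two-sided permutation p, which ignored the pairs, was 0.0286, the smallest that 4 against 4 samples can give. Groups of this size that do not overlap always give this value, so it adds nothing to their being apart. With no signal minimum the limma adjusted p was 0.318 (1.09% of probe sets were called lower in that fit). With the pairs as a block as well it was 0.274 (2.91% called higher and 4.03% lower, 6.94% in all). A pseudocount of 1 in place of 50 gave -0.86. Subconfluent replicate 2, the lowest sample at 20.4, was also the array with the highest pixel noise, 21.6 in the same units.

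Efnb1 (98407_at) encodes ephrin-B1, a transmembrane ligand of B-class receptors, and no common direction was seen. Its signals were 335, 209, 69.9 and 106 in confluent and 221, 343, 134 and 43.8 in subconfluent samples 1 to 4. Both groups spread widely and overlapped over almost their whole range. Means were 180 ± 119 and 185 ± 127 (SD, n = 4). The log2 differences were -0.51 and -0.74 in pairs 1 and 4 and 0.60 and 0.62 in pairs 2 and 3. The mean difference was -0.01 (exact two-sided permutation p = 1), and its 95% interval with no signal minimum, 0.491-fold to 2.02-fold (limma adjusted p = 0.997), ran from -1.03 to 1.01 on the log2 scale.

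Efnb2 (160857_at) encodes ephrin-B2, the arterial ligand that EphB4 binds. Its signal was 2781, 3536, 3304 and 3765 in confluent samples 1 to 4 and 3625, 4674, 3352 and 3575 in subconfluent samples 1 to 4. Only subconfluent replicate 2 lay above all confluent values. The confluent mean was 3346 ± 421 and the subconfluent mean 3807 ± 590 (SD, n = 4). The log2 difference of 0.18 ± 0.16 (SE) did not pass (limma adjusted p = 0.530), and it was positive in 3 of 4 pairs. The 95% interval of 0.888-fold to 1.45-fold did not reach the 2.50-fold of Epha2, and the difference between these genes was not tested. Across all fits tried the Efnb2 difference lay between 0.07 and 0.38.

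The rest of the family was looked at in the same way through 15 further Eph and ephrin genes. The annotation gave 16 probe sets for 12 of them. With the brightest probe set standing for each gene, 4 genes were tested, Epha8, Ephb6, Efna3 and Efnb3, and 0 passed in limma in either direction. An unadjusted p under 0.05 was found for 0 of them, against 1558 of all 6007 tested probe sets. Their median log2 difference was 0.05, against 0.01 for all tested probe sets. Ephb6 encodes a receptor without kinase activity. Its brighter probe set (162371_r_at) was 406 ± 71.1 in confluent and 465 ± 113 in subconfluent samples (SD, n = 4). That is a difference of 0.16 (limma adjusted p = 0.659). Its dimmer probe set (102871_at), under the signal minimum, had means of 54.85 and 46.6. There the difference was -0.11, lower in 3 of 4 pairs (limma adjusted p = 0.824 with no signal minimum). Epha8 differed by 0.19 (adjusted p = 0.659). For Efnb3, a B-class ligand, the brighter probe set (94160_at) gave -0.06 (limma adjusted p = 0.870) and the dimmer (103692_at) 0.46 (adjusted p = 0.198, higher in 4 of 4 pairs, as were 20.7% of tested probe sets), so the probe sets of this gene differed in sign.

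**Figure D3:**
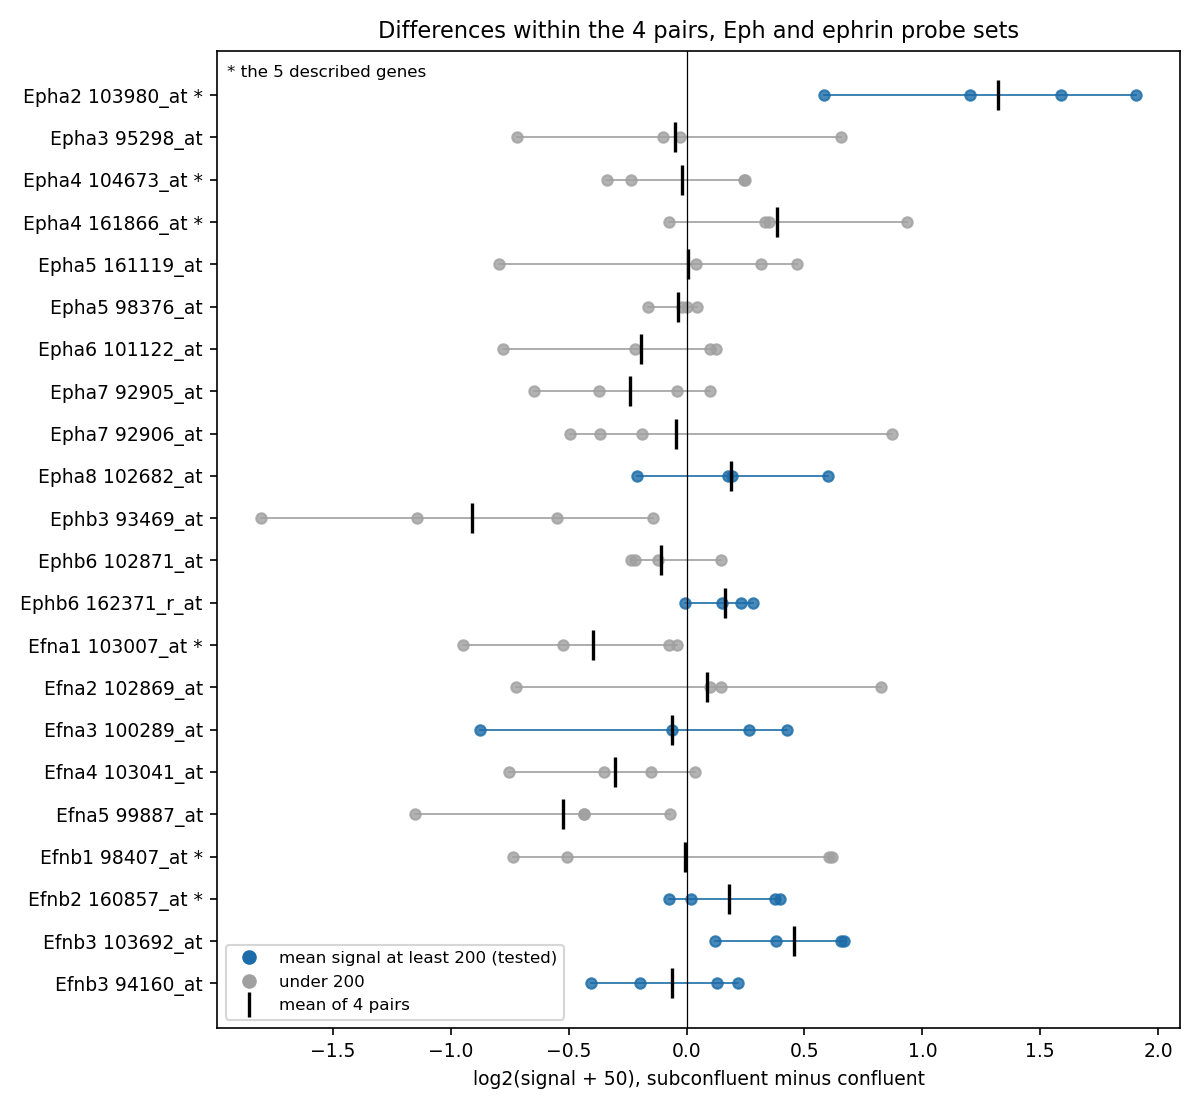
Difference in log2(signal + 50), subconfluent minus confluent, in each of the 4 pairs (points) and their mean (bar) for 22 probe sets of 17 Eph and ephrin genes; stars mark the described genes, and blue marks a mean signal of at least 200. Epha2 stands at 0.58 to 1.91, Efnb2 at -0.07 to 0.40, and Ephb3, under the signal minimum, at -1.80 to -0.14.

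Transcripts of proteins that pass on the receptor signal were compared next. The list held 41 genes of adaptors, exchange factors, kinases and GTPases, of which 28 had a probe set and 17 were tested. In limma 0 rose and 0 fell. An unadjusted p under 0.05 was found for 3 of the 17, against 1558 of all 6007 tested probe sets. The median log2 difference was 0.05, against 0.01 for all tested probe sets. Tiam1, an exchange factor that activates Rac, had signals of 193, 376, 248 and 229 in confluent and 325, 375, 405 and 419 in subconfluent samples 1 to 4, where only confluent replicate 2 reached the subconfluent range. Its difference was 0.50 ± 0.20 (SE, limma adjusted p = 0.140), and without confluent replicate 2 it was 0.66 and passed (adjusted p = 0.0424). Shc1, an adaptor of receptor tyrosine kinases, was lower in 4 of 4 pairs (as were 22.1% of tested probe sets) at -0.64 ± 0.22 (limma adjusted p = 0.100). Abl1, which encodes a cytoplasmic tyrosine kinase, differed by -0.46 ± 0.17 (limma adjusted p = 0.114). When the pairs entered as a block, where 9.94% of tested probe sets were called higher and 11.3% lower, Shc1 fell (adjusted p = 0.0179) and Tiam1 (0.0717) and Abl1 (0.0630) did not pass. Shc1 was called in 2 of the 4 such fits that left out 1 pair (highest adjusted p = 0.0670). The GTPase genes Rac1, Rhoa and Cdc42 differed by 0.05, -0.16 and 0.24 (adjusted p = 0.896, 0.890 and 0.311).

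A further list held 23 genes of ephrin signalling, ephrin shedding and receptor dephosphorylation, of which 18 had a probe set and 13 were tested. Of these 0 rose and 0 fell in limma, with a median log2 difference of -0.12. An unadjusted p under 0.05 was found for 2 of the 13, against 1558 of all 6007 tested probe sets. Ptpn13, a phosphatase that binds B-class ephrins, had signals of 785, 349, 330 and 342 in confluent and 189, 109, 233 and 226 in subconfluent samples 1 to 4. The groups were apart, as in 8.54% of tested probe sets in this direction, and confluent replicate 1 stood far above the other confluent samples. Its difference was -1.02 ± 0.29 (SE, adjusted p = 0.0562), and -0.74 without confluent replicate 1 (adjusted p = 0.103). Stat3, a transcription factor, was -0.53 (adjusted p = 0.166), and Acp1, a small tyrosine phosphatase that acts on Eph receptors, was 0.35 (adjusted p = 0.288). In the fit with pair as a block, where 11.3% of tested probe sets were called lower, Ptpn13 and Stat3 fell (limma adjusted p = 0.0208 and 0.0327). Neither passed in that fit with no signal minimum (0.0552 and 0.0576), and without 1 pair Ptpn13 was called in 2 of 4 fits and Stat3 in 1 of 4 (highest adjusted p = 0.0827 and 0.108). Adam10, the protease that sheds ephrins, was 788 ± 76.5 in confluent and 695 ± 79.0 in subconfluent samples (SD, n = 4, limma adjusted p = 0.516).

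**Figure D4:**
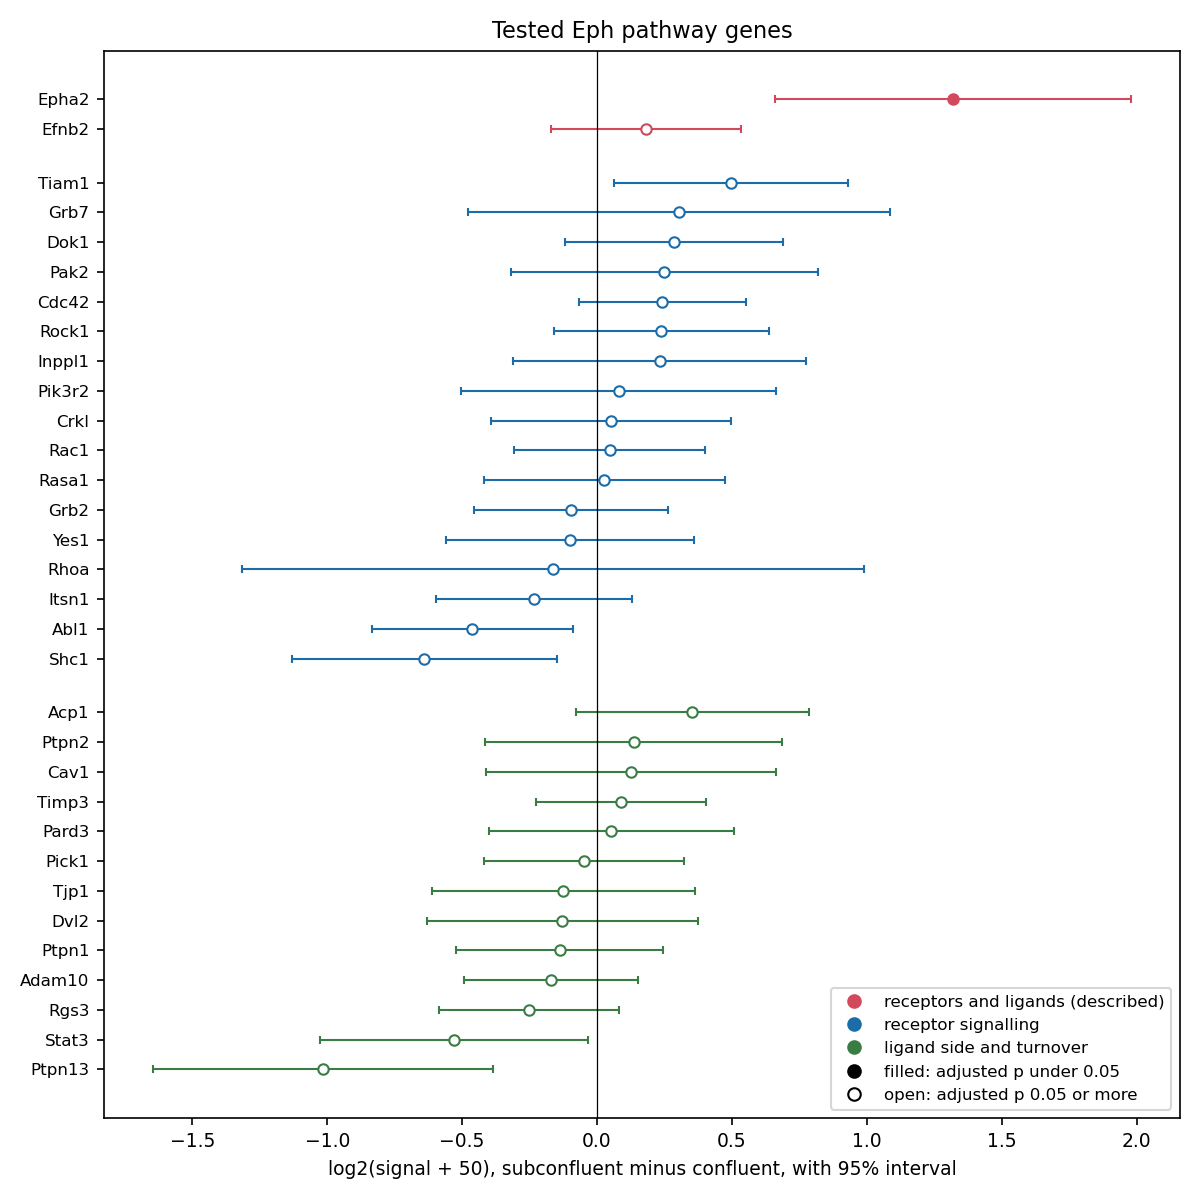
Difference in log2(signal + 50), subconfluent minus confluent, with its 95% interval for the 2 tested members, the 17 tested genes of receptor signalling and the 13 of ephrin signalling and receptor turnover. Epha2 at 1.32 is the filled point (limma adjusted p under 0.05), and Ptpn13 at -1.02 and Tiam1 at 0.50 mark the ends of the other lists.

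Because Efnb2 and Ephb4 are read as arterial and venous markers, other genes of these identities were set beside Efnb2. The list of 15 arterial genes, Efnb2 among them, had 11 with a probe set and 4 tested (Efnb2, Gja5, Nrp1 and Acvrl1). In limma 0 of these rose or fell. An unadjusted p under 0.05 was found for 1 of the 4, Nrp1, against 1558 of all 6007 tested probe sets. Nrp1, a coreceptor for vascular growth factor and semaphorins, was -0.46 ± 0.20 (SE, adjusted p = 0.173), lower in 4 of 4 pairs (as were 22.1% of tested probe sets). Gja5, a gap junction protein of arteries, was 0.28 (adjusted p = 0.605). The arterial genes Notch1, Notch4, Hey1, Gja4, Cxcr4, Sox17 and Bmx lay under the signal minimum. Of the venous genes, Nr2f2, a transcription factor of venous cells, differed by 0.04 (adjusted p = 0.949), and Flt4, a receptor of lymphatic and venous cells, by -0.69 (adjusted p = 0.198). Flt4 fell when the pairs entered as a block (limma adjusted p = 0.0217), where 11.3% of tested probe sets were called lower. It did not pass in that fit with no signal minimum (0.0588), and it was called in 1 of 4 fits without 1 pair (highest adjusted p = 0.102).

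Of the marker lists for other cell types, the fibroblast and pericyte list and the macrophage list averaged lower on every subconfluent array. The smooth muscle and the epithelial and mesothelial averages overlapped between the groups. Relative to the confluent mean, the fibroblast and pericyte markers averaged -0.78 to -0.51 on the subconfluent arrays against -0.15 to 0.15 on the confluent arrays, on the log2 scale. In limma 5 of the 13 tested fell and 0 rose, where 4.06% of all tested probe sets were called lower. Those that fell were Col1a2, Col3a1, Col6a1, Dcn and Lum. With pair as a block 8 of the 13 fell and 0 rose, where 11.3% of all tested probe sets were called lower and 9.94% higher. Pdgfra differed by -1.09 (limma adjusted p = 0.112, and 0.0066 with pair as a block). Pdgfrb, under the signal minimum, differed by -0.85 (limma adjusted p = 0.132 with no signal minimum, and 0.0865 with the block as well). The smooth muscle markers averaged -0.50 to 0.59 on subconfluent and -0.29 to 0.43 on confluent arrays, and single genes moved in opposite directions. Mylk fell by 1.84 (limma adjusted p = 0.0163), the 1 call among 4 tested. Acta2 and Tagln were higher in 4 of 4 pairs (as were 20.7% of tested probe sets), by 1.14 and 1.47 (adjusted p = 0.228 and 0.108). Both rose with pair as a block (0.0172 and 0.0102). The macrophage markers averaged -0.30 to -0.22 on subconfluent and -0.13 to 0.07 on confluent arrays. Their summed signal, 2801 to 4175 on confluent and 1935 to 2557 on subconfluent arrays, was mostly that of Cd14, the only 1 of 11 at 200 or more, with 1887 to 3276 and 1292 to 1864. Cd14 was -0.70 (limma adjusted p = 0.0563, and 0.0228 with pair as a block). Mpeg1 went from 134 in confluent to 33.3 in subconfluent samples and Lyz2 from 51.0 to 8.40. Both had the groups apart and 4 of 4 pairs lower, as had 5.87% and 17.1% of all 12422 probe sets. With no signal minimum their limma adjusted p was 0.0650 and 0.199, or 0.0354 and 0.120 with the block. Ptprc, Aif1 and Marco differed by 0.08, 0.04 and 0.04, with means of 9.57 to 17.6. The epithelial and mesothelial markers averaged -0.33 to 0.03 on subconfluent and -0.30 to 0.47 on confluent arrays, and 2 of 10 reached 200. Cdh1 was 386 ± 35.3 in confluent and 490 ± 79.4 in subconfluent samples (SD, n = 4, limma adjusted p = 0.256). Its groups were apart and 4 of 4 pairs higher, as in 8.34% and 20.7% of tested probe sets. Upk3b was 2115 ± 1492 and 1021 ± 256 (limma adjusted p = 0.161), lower in 4 of 4 pairs (as were 22.1% of tested probe sets), and it fell with pair as a block (0.0271). Krt8 and Krt18 were 54.5 and 82.4 in confluent and 40.7 and 68.2 in subconfluent samples. The endothelial markers averaged 0.02 to 0.20 on subconfluent and -0.16 to 0.30 on confluent arrays, with 0 of 3 tested called. Procr (0.62, limma adjusted p = 0.213) rose with pair as a block (0.0320). Selp, a dim one, was 95.6 in confluent and 290 in subconfluent samples (apart, as in 4.72% of all 12422 probe sets). Flt1 was 88.7 and 33.2. With no signal minimum their limma adjusted p was 0.0544 and 0.204, or 0.0436 and 0.0963 with the block. The part of cell composition in the Epha2 difference was not tested.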

How the data were processed

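Each array's deposited file gives a linear signal for every probe set. The authors computed it by Affymetrix's statistical algorithm, with a scaling target of 500, per the labels. Software version, detection calls and image files were not used here. Each array's mean after trimming 2% at each end was 500, so no further normalization was applied. Scale factor, noise and chip lot came from the labels.

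Of 12488 probe sets 66 controls were left out. The annotation gave 1 symbol to 10855, several to 396 and none to 1237; 10839 gene identifiers matched the RefSeq table (GRCm38.p6) and 0 symbols changed. Probe sets with a mean of at least 200 over 8 arrays were tested (6007), on log2(signal + 50). The brightest probe set stood for a gene. limma 3.58.1 in R 4.3.3 (lmFit, eBayes with a variance trend, two-sided, no block) compared subconfluent with confluent, adjusted by Benjamini-Hochberg over all probe sets tested; the same code was tested on simulated data. Dim members had an exact permutation test instead (4 such tests), which did not use the pairs. Promoters came from RefSeq (Python 3.11.15), and their motifs were chosen after the Epha2 window was read.

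Members and lists were chosen with earlier results of these data known. Named genes are all members and, for the cell type lists, a fixed set of defining markers. Of each other list they are those that passed or, where fewer than 3 did, up to 3 tested with the smallest p. Other list genes, cell type genes among them, were named after their values were seen. Same-numbered arrays' deviations from group means correlated at 0.486, 0.357, 0.516 and 0.348 (highest between other numbers 0.0681), so numbers were taken to pair the samples, and a fit with pairs as a block was one alternative. Others were pseudocount, signal minimum, normalization, chip lot, scale factor, array weights, variance trend and leaving out arrays.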

Additional observations from a re-analysis of the deposited data

Results flagged for a closer look

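In 38 groups of 4 samples (19 probe sets, each in both conditions), 3 had 1 sample set far apart by Dixon's criterion, where chance gives about 1 in 20. Efna1 had a signal of 20.4 in subconfluent replicate 2 against 28.1 to 29.5 in the other subconfluent samples. The phosphatase gene Acp1 stood at 366.8 in confluent replicate 1 against 647.2 to 707.9 in the other confluent samples, and its log2 difference was 0.16 without that sample in place of 0.35. Ptpn13 stood at 785 in confluent replicate 1 against 330 to 349.3 in the others.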

How the results depend on the processing

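The direction of Epha2 and of Efnb2 was the same in all 27 alternatives each. The count of members called higher was 1, and it was 0 with no signal minimum and within lot C, and 0 to 1 without 1 array. Epha2 was 1.32 (adjusted p = 0.0549) with no signal minimum, where 12422 probe sets were adjusted for, 2.16 within lot C, and 1.13 to 1.55 without 1 array. With the pairs as a block it was 1.32 (adjusted p = 0.00491), and 1.12 to 1.57 without 1 pair, called in each. Combined with no signal minimum, a setting added after the data were seen, the block gave an adjusted p of 0.0160. The block changed no other member's call. Efnb2 ran from 0.08 to 0.24 without 1 array. Epha4 moved to 0.24 within lot A and 0.38 with its second probe set (-0.13 to 0.11 without 1 array), and Efna1 to -0.86 with a pseudocount of 1 and -0.074 within lot A (-0.50 to -0.25 without 1 array). Efnb1 had either sign, from -0.31 to 0.37 without 1 array. Receptor signalling genes called lower were 1 with the pairs as a block, with the block and no signal minimum, and with lot as a random block, and 0 to 1 without 1 pair; those called higher were 0 to 1 without 1 array (Tiam1 without confluent replicate 2) or 1 pair. Ligand side and turnover genes called lower were 2 with the pairs as a block, 0 with the block and no signal minimum, 1 with lot as a random block and 0 to 2 without 1 pair. All probe sets called were 409 without and 1276 with the block, and 208 with no signal minimum. Median centring shifted all differences by 0.04. Signals near the pixel noise limit Efna1 and the second Epha4 probe set.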

Other observations

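Ephb3, a B-class receptor outside the genes chosen, was named after its values were seen. Its signals were 172.5, 314, 318 and 185 in confluent and 151, 54.3, 117 and 111 in subconfluent samples 1 to 4. The groups were apart in this dim gene (mean 178 over all 8 arrays, under the minimum of 200). Of all 12422 probe sets without the controls 5.87% were apart in this direction. The log2 difference of -0.91 was negative in 4 of 4 pairs, as in 17.1% of these probe sets. It ran from -1.80 in pair 2 to -0.14 in pair 1. The exact two-sided permutation p, which ignored the pairs, was 0.0286, the smallest possible with 4 against 4. Groups of this size that do not overlap always give this value. Ephb3 did not pass in limma with no signal minimum (adjusted p = 0.117, or 0.107 with the pairs as a block). Efna5, an A-class ligand chosen in the same way, had signals of 47.7, 70.7, 42.7 and 49.5 in confluent and 22.3, 4.30, 18.6 and 44.7 in subconfluent samples. It was lower in 4 of 4 pairs, as were 17.1% of the 12422 probe sets (limma adjusted p = 0.171 with no signal minimum).

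Over the 8 arrays and 4669 other tested genes, the patterns most like that of Epha2 were those of Eif2s3x, a translation initiation factor subunit (Pearson r = 0.977), Rrm1, a subunit of ribonucleotide reductase (0.961), and Fkbp1a, a prolyl isomerase (0.961). Eif2s3x and Rrm1 rose (limma adjusted p = 0.0416 and 0.0413), and Fkbp1a was 0.42 (adjusted p = 0.0928). For Efnb2 they were Tars, a threonyl-tRNA synthetase (0.944), Rp9 (0.921) and Ccnd1, cyclin D1 (0.916), none of which passed (limma adjusted p = 0.484, 0.445 and 0.649). These correlations describe 8 samples in 2 groups, share the arrays' scaling and were picked as the highest of all those compared.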
